A study of Homo sapiens and Mus musculus with 8 samples.

Results

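The BCL2 family and the apoptosis inhibitor BIRC3 were followed in OVCAR-8 cells, a human high-grade ovarian carcinoma line, that carried either a guide against ATG9A (sgATG9A) or the control guide sgGAL4. GAL4 is a yeast gene, so its guide has no intended human target, and ATG9A encodes the membrane protein that supplies vesicles for the growing autophagosome. The 10 genes were fixed by name, with earlier results of these data known. They were 4 anti-apoptotic BCL2 proteins (BCL2, BCL2L1, MCL1 and BCL2A1) and 2 pore-forming effectors (BAX and BAK1). The others were 3 BH3-only proteins (BBC3, PMAIP1 and BCL2L11) and BIRC3. All 10 were found among the 58381 genes of the count table, and all 10 passed the filter on low counts, which left 16141 genes. Bulk RNA of cancer cells was sequenced in 2 libraries per group, labelled as biological replicates and as ATG9A KO for sgATG9A. The labels name no drug and no co-culture for either group, and the controls carry a guide too. Per the study's methods, single guides were delivered by lentivirus from the lentiCRISPRv2 plasmid, which also carries Cas9. The question was whether the RNAs that restrain apoptosis and those that drive it were shifted differently in ATG9A KO cells.

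Apoptosis through mitochondria is set by binding between BCL2 family proteins. BAX and BAK1 form pores in the outer mitochondrial membrane, the anti-apoptotic members hold them and the BH3-only proteins in check, and BH3-only proteins such as PUMA (BBC3), NOXA (PMAIP1) and BIM (BCL2L11) occupy those guardians or activate the effectors directly. The inhibitor of apoptosis proteins (IAPs) act elsewhere: BIRC3, also called cIAP2, is a ubiquitin ligase bound to TNF receptor complexes, where it favours survival signalling over caspase-8 activation. BCL2A1 and BIRC3 are known targets of NF-kB, the transcription factor family downstream of TNF receptors, and BCL2A1 is best known from blood cells.

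The promoter of BIRC3 is shown because BIRC3 is a known NF-kB target and changed with the smallest p of the 10. The stretch lies at chr11:102317234-102317449 on the plus strand (RefSeq, GRCh38.p14), from 250 to 35 bases before the RefSeq start of the gene, and the capitals mark matches to the kappaB pattern (GG, a pair of purines, any pair of bases, a pair of pyrimidines, CC).

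BIRC3: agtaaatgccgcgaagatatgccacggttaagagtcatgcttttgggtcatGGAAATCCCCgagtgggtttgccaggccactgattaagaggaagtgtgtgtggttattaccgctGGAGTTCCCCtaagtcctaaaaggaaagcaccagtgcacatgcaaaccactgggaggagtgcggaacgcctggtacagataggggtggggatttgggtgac

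The 2 matches began 199 and 135 bases before the start. A match to this pattern on either strand was held by 14% of the 35114 RefSeq promoter windows, so its presence in 1 window is a description only. Of the 10 members, 9 had a RefSeq window, and MCL1 had no entry. No kappaB match was found in the windows of the other 8, BCL2A1 included. The windows begin 250 bases before the RefSeq start, and sequence farther away was not searched. The window of PMAIP1 held 1 CRE core (TGACGT, read on the minus strand) beginning 56 bases before its start, a pattern found in 7.98% of windows. BAX held 4 E-boxes (CACGTG, in 7.26% of windows), and BBC3 held 1 E-box and 1 AP-1 pattern (TGANTCA, in 7.71%). The windows of BCL2, BCL2L1, BCL2L11 and BCL2A1 held none of these 4 patterns, which were chosen with expression results known.

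In ATG9A KO cells 4 of the 10 RNAs rose, 1 fell and 5 did not pass the test. The risers were on both sides of the balance: BCL2A1 and MCL1 among the anti-apoptotic genes, BIRC3 among the IAPs, and PMAIP1 among the pro-apoptotic genes. BCL2L1, which encodes BCL-XL, fell. Over all 16141 genes tested, 8.93% were called higher and 7.42% lower at an adjusted p under 0.05 (edgeR quasi-likelihood test, Benjamini-Hochberg adjustment), with a median of -0.0022 on the log2 scale. BCL2A1 is among the 4 although it passed the filter only where it was high, as given below. Higher by more than 2-fold were 3 of the 10 members (BCL2A1, BIRC3 and PMAIP1), against 1.28% of all genes. No member was lower by that much. The members were chosen with earlier results of these data known, so these shares are a description only.

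**Figure D1:**
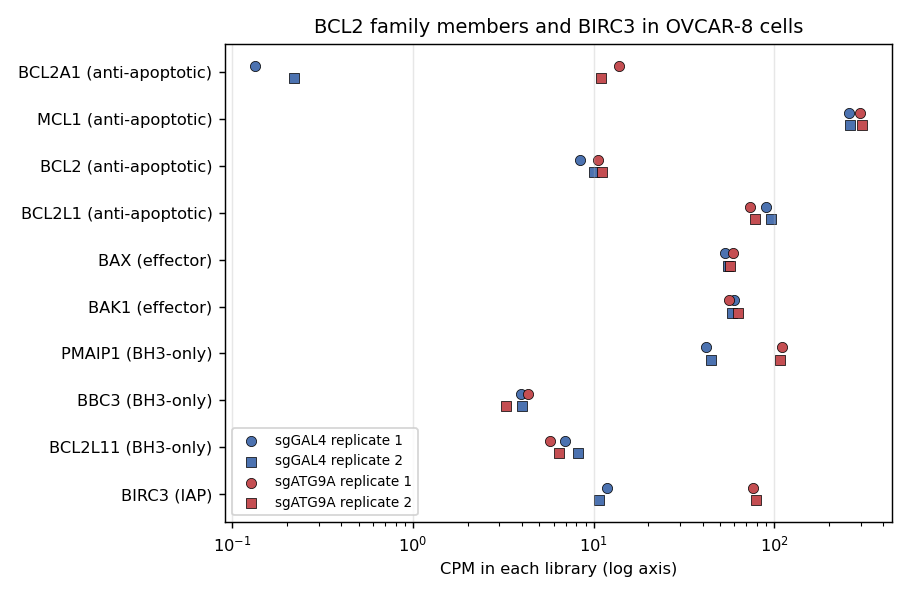
Level of each of the 10 RNAs in the 4 libraries, in CPM (counts scaled to library size) on a log axis, with sgGAL4 in blue, sgATG9A in red, circles for replicate 1 and squares for replicate 2. BCL2A1, PMAIP1 and BIRC3 stand far apart between the groups, while BAK1 and BBC3 overlap; levels are not comparable between genes.

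Levels are given as CPM (read counts scaled to the library total and by TMM factors). Gene length was not taken out, and the labels name a 3' kit while the study's methods name paired-end reads. Levels are thus compared only within a gene. The list of nearest genes below is an exception, as it was drawn from genes of similar CPM. Summed marker levels add CPM over genes, so genes of high CPM weigh most, and the balance averages log2 CPM over genes. Shares of exon bases below are over whole genes, and the share of reads they concern was not measured. The 4 libraries held 22200998 to 22969233 counts. The p-values rest on the spread between 2 libraries per group, with each gene's spread drawn toward the trend over all genes tested. In bulk RNA, a change in the share of cells that express a gene and a change in RNA per cell cannot be told apart. The groups' libraries did not overlap for 8 of the 10 members, but this held for 55.3% of all genes tested, so non-overlap by itself says little here.

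BCL2A1 showed the largest change of the 10. This gene (chr15:79960889-79971446, minus strand, GRCh38, protein coding) encodes BFL-1, which binds BH3-only proteins. Control cells gave 0.134 and 0.22 CPM, and ATG9A KO cells gave 13.8 and 10.9 CPM. The control RNA was thus near the limit of detection, with 3 and 5 counts, whereas 312 and 248 counts were found in ATG9A KO cells. The control counts lay below the minimum of the filter, so BCL2A1 entered the test only through the KO libraries and had to differ, and its p is given as a description. The log2 fold change was 6.08 (SE 0.28, n = 2 per group, edgeR adjusted p = 1.80e-13). From the summed 8 and 560 counts, the ratio was 69.6 with a 95% interval of 35.1 to 162, which covers counting error only and is wide because the control level rests on 8 counts. Of all genes tested, 99.9% had a lower log2 fold change.

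Because BCL2A1 is a blood cell gene, markers of leukocytes were read in the same libraries. Of 12 markers, 5 passed the filter on low counts, and PTPRC, TYROBP and CD3E had 0 counts in all 4 libraries. The summed level of the 12 was 3.66 and 5.02 CPM with sgGAL4 and 4.28 and 4.13 CPM with sgATG9A, so it overlapped between the groups. ITGAM, an integrin of myeloid cells, was called higher on 5 and 9 against 19 and 28 counts (log2 fold change 1.72, adjusted p = 0.0161). CD14, the co-receptor for endotoxin, was called lower on 23 and 20 against 6 and 1 counts (-2.58, adjusted p = 0.00364). ITGAM passed the filter only through the KO libraries and CD14 only through the controls. Each had to differ, so both p values are given as a description. Neither call held in every subset: ITGAM reached adjusted p values of 0.196, 0.0559 and 0.208 without sgGAL4 replicate 1, sgGAL4 replicate 2 and sgATG9A replicate 2, and CD14 reached 0.0721 and 0.0732 without sgGAL4 replicate 1 and sgATG9A replicate 2.

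The other anti-apoptotic members differed by small amounts. MCL1 (chr1:150574551-150579738, minus strand), a short-lived guardian of BAK1, stood at 258 and 261 CPM in sgGAL4 libraries and at 298 and 306 CPM in sgATG9A libraries. Both KO libraries lay above both controls, with a log2 fold change of 0.22 (SE 0.05, adjusted p = 0.00323). Without sgATG9A replicate 2, a fit that left a single KO library, the change was 0.20. The direction was kept and the size was close, but the call was lost.

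BCL2L1 (chr20:31664452-31723989, minus strand) stood at 90.2 and 95.6 CPM in control cells and fell to 73.6 and 77.6 CPM in ATG9A KO cells. Both KO libraries lay below both controls (log2 fold change -0.30, SE 0.055, adjusted p = 4.39e-04). Of its exon bases, 43% overlap the antisense gene ABALON, and per the study's methods reads were counted without strand and given to neither gene where they overlapped both, so the BCL2L1 count rests on its other exon bases. ABALON, named here after its values were seen, was at 5.09 and 4.44 CPM in control and 3.09 and 3.91 CPM in KO libraries, and did not pass the test (log2 fold change -0.44, adjusted p = 0.118).

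BCL2 itself (chr18:63123346-63320128, minus strand), the founding member of the family, was measured at 8.43 and 9.99 CPM in control and 10.5 and 11.1 CPM in KO libraries. The KO libraries were the higher ones without overlap, yet the change did not pass the test (log2 fold change 0.23, 95% interval -0.023 to 0.49, adjusted p = 0.225). The interval leaves room for a rise of the size seen for MCL1 as well as for no change.

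Neither pore-forming effector passed the test. BAX stood at 53.2 and 55.2 CPM with sgGAL4 and at 58.8 and 56.6 CPM with sgATG9A, a log2 fold change of 0.09 with a 95% interval of -0.033 to 0.21 (adjusted p = 0.349). BAK1 stood at 59.6 and 58.3 CPM with sgGAL4 and at 56.1 and 63.2 CPM with sgATG9A, where the KO libraries lay on either side of the controls (0.018, interval -0.11 to 0.15, adjusted p = 0.898). The upper ends of both intervals lie well below the change measured for PMAIP1.

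Of the BH3-only genes, 1 rose and 2 did not pass the test. PMAIP1 (chr18:59899948-59904306, plus strand), whose product NOXA binds MCL1 and BFL-1, was at 41.5 and 44.6 CPM in control cells and at 109.8 and 108 CPM in ATG9A KO cells. The libraries within a group lay close together and the groups far apart, 2.53-fold between the means (log2 fold change 1.34, SE 0.057, adjusted p = 3.84e-14). None of its exon bases are shared with another gene.

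BCL2L11 (chr2:111119378-111168447, plus strand) went the other way in value, from 6.96 and 8.23 CPM to 5.70 and 6.46 CPM. The groups did not overlap, but the difference did not pass the test over all genes (log2 fold change -0.32, unadjusted 95% interval -0.62 to -0.018, adjusted p = 0.149), and 10.9% of its exon bases lie over the antisense gene MIR4435-2HG. BBC3 (chr19:47220822-47232766, minus strand) was low and level, at 3.97 and 4.0 CPM in control and 4.33 and 3.25 CPM in KO libraries. Its interval, -0.47 to 0.33 on the log2 scale, is the widest of the 5 members that did not pass (-0.073, adjusted p = 0.859).

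BIRC3 (chr11:102317450-102339403, plus strand) had the smallest p of the 10. It stood at 11.8 and 10.6 CPM in sgGAL4 libraries and at 76.2 and 78.6 CPM in sgATG9A libraries. Every KO library was several times above every control, with 6.89-fold between the means (log2 fold change 2.78, SE 0.076, adjusted p = 8.18e-18). Its paralog BIRC2, which encodes cIAP1, begins 7808 bases after it on the same chromosome. BIRC2 also rose, from 110.7 and 98.7 CPM to 148 and 146 CPM (log2 fold change 0.49, SE 0.056, adjusted p = 7.37e-07). The genes flanking this pair, YAP1 and TMEM123, named for their position after their values were seen, had log2 fold changes of 0.015 (adjusted p = 0.901) and -0.04 (adjusted p = 0.592).

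**Figure D2:**
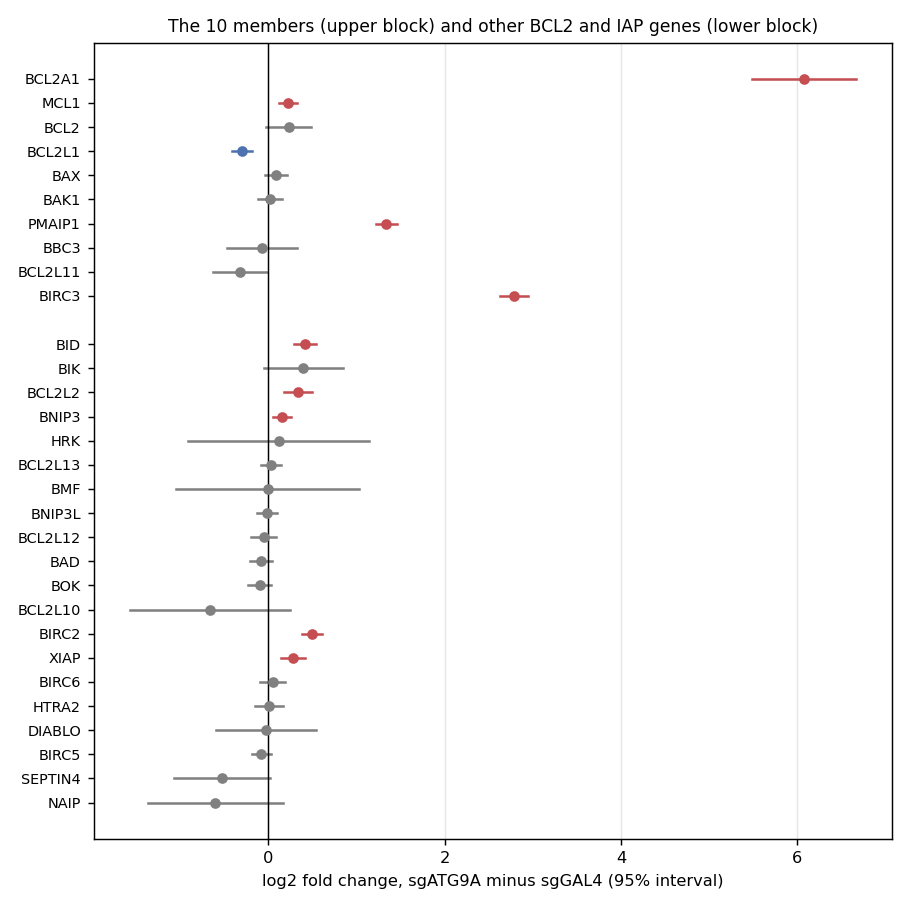
Log2 fold change of each gene, sgATG9A minus sgGAL4, with its 95% interval, for the 10 members above and the tested members of 2 further lists below, the other BCL2 family genes and the other IAPs with their antagonists. Genes past an adjusted p of 0.05 are red when higher and blue when lower, grey otherwise; BCL2A1 at 6.08 and BIRC3 at 2.78 lie far to the right of every gene in the lower block, whose highest is BIRC2 at 0.49.

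To set the anti-apoptotic against the pro-apoptotic BCL2 members in each library, the mean log2 CPM of the 4 guardians was taken minus that of the 2 effectors and 3 BH3-only genes. This balance came to -0.64 and -0.47 with sgGAL4 and to 0.78 and 0.77 with sgATG9A, a difference of 1.33. The KO libraries lay above both controls by more than the gap of 0.17 between the controls. The difference rests on BCL2A1: without it the balance was 1.5 and 1.54 in control and 1.32 and 1.41 in KO libraries, so the difference turned to -0.16. With the median of each side in place of the mean it was -0.32, and without both BCL2A1 and PMAIP1 it was 0.13. Only the differences between groups can be read, because each gene enters with its own length and detection. No test was run on a score over the members, and RNA levels say nothing of the amounts or binding of the proteins.

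**Figure D3:**
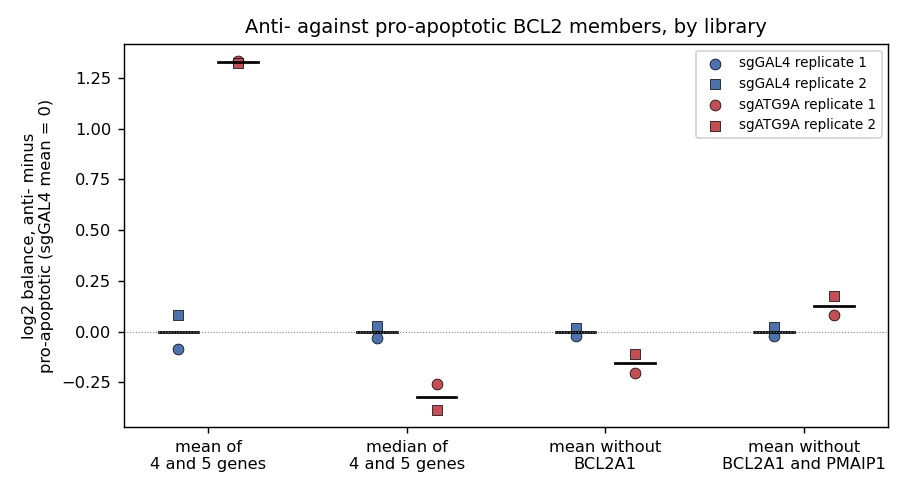
Balance of anti- over pro-apoptotic BCL2 members in each library, in log2 units with the mean of the sgGAL4 libraries set to 0, computed in 4 ways (horizontal bars, group means). The sgATG9A libraries lie 1.33 above the controls with all members, and below them with the median (-0.32) or without BCL2A1 (-0.16).

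The remaining BCL2 family genes showed small differences. Of 14 on the list, 12 were tested, 3 rose and none fell, with 9 that did not pass, and the list had a median of 0.011 on the log2 scale. These counts, and those of the lists below, stand beside 8.93% higher and 7.42% lower over all genes tested. BID, the BH3-only protein that caspase-8 cuts, rose from 46.6 and 44.9 CPM to 61.9 and 59.9 CPM (log2 fold change 0.41, adjusted p = 2.89e-05). BCL2L2, which encodes the guardian BCL-W, rose from 25.7 and 26.7 CPM to 33.7 and 32.6 CPM (0.34, adjusted p = 0.00292). With no filter on low counts its adjusted p was 0.0541, and 24.3% of its exon bases are shared with other genes. BNIP3, a mitophagy receptor, was called at 0.16 (adjusted p = 0.0337), and DESeq2 gave it an adjusted p of 0.145. The BNIP3 call was also lost on leaving out any 1 library, at changes of 0.14 to 0.18.

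Of the other IAPs and the proteins that antagonise them, 8 of 10 were tested, of which 2 rose and 6 did not pass, with a median log2 fold change of -0.0093. The second riser beside BIRC2 was XIAP, the IAP that blocks caspases directly, at 53.8 and 47.6 CPM in control and 60.1 and 63.1 CPM in KO cells (0.28, adjusted p = 0.00392). Without sgGAL4 replicate 2 its change was 0.19 and the call was lost, as it was with no filter on low counts (adjusted p = 0.131). Rises among IAP genes therefore reached from 0.28 for XIAP to 2.78 for BIRC3.

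Among 13 caspase, apoptosome and adaptor genes, which act downstream of the mitochondria and the death receptors, 1 rose, 1 fell and 11 did not pass, at a median log2 fold change of 0.068. These counts lie near the 8.93% and 7.42% called over all genes. CFLAR, which encodes cFLIP and keeps caspase-8 from full activation, rose from 62.2 and 59.8 CPM to 85 and 76.5 CPM (0.40, adjusted p = 3.51e-05), and 12% of its exon bases are shared with other genes. FADD, the adaptor that recruits caspase-8, was called at -0.29 (adjusted p = 0.0357), with 54.9% of its exon bases shared. DESeq2 gave FADD an adjusted p of 0.269. The FADD call was also lost on leaving out any 1 library, at changes of -0.30 to -0.28.

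The death receptors and their ligands moved in both directions. Of 12 genes, 9 were tested, 4 rose and 2 fell, with a median log2 fold change of 0.13. TNF, the ligand of the receptors to which BIRC3 is recruited, stood at 9.86 and 7.88 CPM in control and at 46.9 and 45.2 CPM in KO cells (log2 fold change 2.38, SE 0.096, adjusted p = 1.45e-14). The TRAIL receptor genes TNFRSF10B and TNFRSF10A rose by 0.51 (adjusted p = 2.40e-07) and 0.54 (adjusted p = 4.91e-04, 16.6% of exon bases shared) on the log2 scale, and FAS rose by 0.43 (adjusted p = 0.00476). TNFRSF1A, the main TNF receptor, instead fell from 179 and 191 CPM to 138 and 146 CPM (-0.38, adjusted p = 2.69e-05), and TNFRSF21 fell by 0.45 (adjusted p = 0.00158). DESeq2 gave FAS an adjusted p of 0.0755. With no filter on low counts, edgeR gave adjusted p values of 0.0592 for FAS and 0.0676 for TNFRSF21.

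Genes known as NF-kB targets with a role in survival, other than the members, were read as a further list. Of all genes tested, 8.93% were called higher and 7.42% lower. On this list 9 of 12 rose, 1 fell and 2 did not pass, with a median log2 fold change of 0.45. These genes were chosen with results of these libraries known, and the list shares CFLAR, XIAP and BIRC2 with those above, so its count is no independent evidence. SOD2, the mitochondrial superoxide dismutase, stood at 36.3 and 33.2 CPM in control and at 301 and 301 CPM in KO libraries (3.12, adjusted p = 1.27e-20). TNFAIP3, a deubiquitinase that restrains NF-kB, stood at 6.20 and 7.08 against 51.9 and 52.2 CPM (2.97, adjusted p = 9.60e-17). IER3 rose by 1.38 (adjusted p = 5.15e-14), with 26.5% of its exon bases shared with its antisense gene. GADD45B, a stress gene, went against the list and fell by 0.42 (adjusted p = 1.12e-04).

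**Figure D4:**
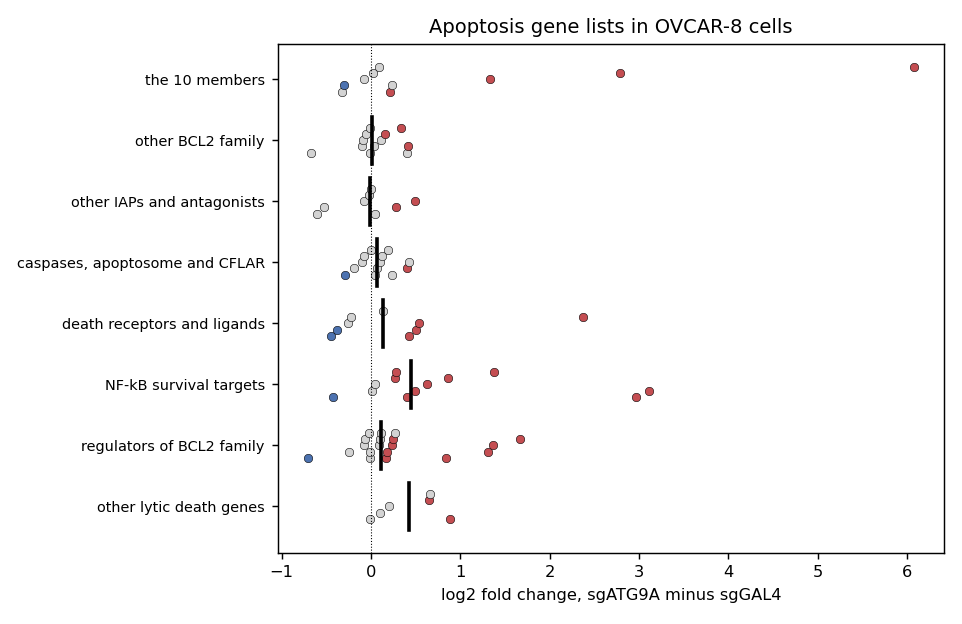
Log2 fold change, sgATG9A minus sgGAL4, of every tested gene in 8 lists, with red for genes called higher, blue for genes called lower, grey for the rest, and a black bar at the median of each list apart from the members. The NF-kB survival targets have the highest median at 0.45, and the other BCL2 family genes centre near 0.

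Genes that regulate BCL2 family RNA and protein turnover were led by NF-kB subunits. Of 19 tested, 8 rose, 1 fell and 10 did not pass, with a median log2 fold change of 0.12. RELB went from 13.2 and 12.2 CPM to 40.4 and 40.5 CPM (1.67, adjusted p = 9.02e-13). NFKB2 rose by 1.36 (adjusted p = 1.06e-14), NFKB1 by 1.31 (adjusted p = 2.66e-14) and REL, with 43.3% of its exon bases shared with another gene, by 0.84 (adjusted p = 1.01e-04). FOXO1, a transcription factor that can drive BCL2L11, fell by 0.71 (adjusted p = 0.00246). DESeq2 gave FOXO1 an adjusted p of 0.0521, and edgeR with no filter on low counts gave 0.066. FOXO3, of the same family and list, went the other way and was called higher by 0.24 (adjusted p = 0.0268). DESeq2 gave FOXO3 an adjusted p of 0.184, and this gene is named here after its values were seen. MYC and the MCL1 ubiquitin ligases HUWE1 and FBXW7, named here after their values were seen, did not pass, at -0.0057, -0.072 and -0.011.

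Genes of lytic death outside apoptosis were also read. Of 8, 6 were tested, 2 rose and 4 did not pass, with a median log2 fold change of 0.43. Not tested were RIPK3, with 2 counts in sgATG9A replicate 2 only, and ZBP1, with 0 counts in every library. CASP4, an inflammatory caspase that senses endotoxin, rose from 75.7 and 74.6 CPM to 119.8 and 116.4 CPM (0.65, adjusted p = 1.88e-09). MLKL, the pore former of necroptosis, rose from 4.10 and 3.17 CPM to 7.11 and 6.28 CPM (0.88, adjusted p = 8.58e-04). The gasdermin genes GSDMD and GSDME, named after their values were seen, did not pass, at 0.098 and -0.0055.

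For the 3 members that rose more than 2-fold, the genes nearest in log2 fold change among those of similar level were listed, as a description over the 4 libraries. For PMAIP1 these were NFKB2, NFKB1 and IER3, at 1.36, 1.31 and 1.38. For BIRC3 they were EDN1, which encodes endothelin-1, PPP4R4 and TNFAIP3, at 2.65, 2.95 and 2.97. For BCL2A1 no gene of similar level came close: the nearest were AC025419.1 at 3.90, LINC02310 at 3.57 and CXCL3, a neutrophil chemokine, at 3.54.

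The targeted gene was read in the same libraries. ATG9A stood at 20.4 and 18.4 CPM with sgGAL4 and at 12.8 and 11.5 CPM with sgATG9A, lower in both KO libraries (log2 fold change -0.68, SE 0.10, adjusted p = 4.22e-05). RNA remained, which a guide that cuts the coding sequence need not remove, and 38.8% of ATG9A exon bases are shared with another gene. Markers of ovarian carcinoma epithelium were present in part and changed: of 12, 10 were tested, 1 rose and 5 fell. KRT19 had 0 counts in every library, and MUC16 had 2 counts, in sgGAL4 replicate 1 only. CDH1 was low, at 0.71 and 0.62 CPM in control and 0.75 and 0.97 CPM in KO cells. The summed level of the 12 was 4204 and 4072 CPM in control and 2655 and 2651 CPM in KO cells. KRT8 alone gave 2171 and 2024 CPM of this sum in control and 1257 and 1268 CPM in KO cells. PAX8, a transcription factor of the Mullerian lineage, rose by 1.21 (adjusted p = 7.83e-14), while KRT8 fell by 0.73 (adjusted p = 5.74e-12), KRT18 by 0.83 (adjusted p = 1.58e-11, 16.3% of exon bases shared with KRT8), KRT7 by 0.79 (adjusted p = 2.33e-11) and FOLR1 by 0.98 (adjusted p = 1.97e-05). The part of these shifts in the changes of the BCL2 family was not tested.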

How the data were processed

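Bulk RNA of OVCAR-8 cells (sgGAL4 and sgATG9A, 2 libraries each) was analysed from raw counts per gene that the authors deposited. Per the labels and the study's methods, they trimmed reads with cutadapt, aligned them with STAR to GRCh38 and counted uniquely mapped reads over GENCODE v28 exons with featureCounts, without strand. The labels name a 3' kit while the methods name paired-end reads, so levels are compared only within a gene. The nearest-gene rule is an exception, as it picks genes of similar CPM. Summed marker levels and the balance also combine levels over genes. Single-cell data of mouse tumors were not used here. The results of 1 list and 1 further gene are not reported here. Symbols and positions came from GENCODE v29, which matched 58216 of 58381 IDs.

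In R 4.3.3, edgeR 4.0.16 (filterByExpr, TMM, two-sided quasi-likelihood test, Benjamini-Hochberg adjustment) was fitted to all genes without a covariate, and calls were made at an adjusted p under 0.05. Balances used log2 CPM with a prior count of 0.5. DESeq2 1.42.0 was an alternative. Other list genes were named when they passed the test, up to 4 per direction by p. The members, lists, motifs and nearest-gene rule were chosen with earlier results of these data known. The fit was checked on simulated data. Totals of 22200998 to 22969233 counts and 2 libraries per group limit the precision.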

Additional observations from a re-analysis of the deposited data

How the results depend on the processing

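The members' calls were recomputed without each library, with a replicate block, with DESeq2, without the filter or with one at 50 counts in 2 libraries, and with RLE scaling. Of 90 values for the 10 members, 87 kept their direction and their side of the threshold. MCL1 lost its call without sgATG9A replicate 2, where 3 members were called higher in place of 4 (range 3 to 4), while 1 was called lower throughout. BAK1 and BBC3, neither of them called, changed sign without that library (-0.070 to 0.10 for BAK1 and -0.29 to 0.12 for BBC3 over the libraries left out). Of 392 values for the 44 called genes of the other lists, cell type markers included, 331 kept both, 61 lost the call and none changed sign; DESeq2 gave no adjusted p for CD14 and ITGAM.

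Over all genes, 1441 were called higher and 1198 lower, against 856 and 594 with DESeq2, 578 and 365 with no filter on low counts (32430 genes tested), and 893 to 1177 and 736 to 887 without 1 library, the lowest of both being without sgGAL4 replicate 1. The cause of the lower counts with DESeq2 and with no filter was not tested. Over the 8 other apoptosis lists that were fitted, 29 genes were called higher and 7 lower, against 16 and 2 with no filter, and 21 to 27 and 4 to 6 without 1 library, the 4 being without sgGAL4 replicate 1. The change of ATG9A ranged from -0.76 to -0.60.

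The difference in balance, 1.33, was 1.07 with a prior count of 5, -0.32 with the median over members, and 1.24 to 1.41 without 1 library. The range without 1 library rests on BCL2A1, which passed the filter only through the KO libraries, and shows nothing of the other members. Leaving out BCL2A1 (-0.16) or BCL2A1 and PMAIP1 (0.13) was chosen after seeing the data.

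With the replicate block, 1840 genes were called higher and 1558 lower, 33 and 8 on the lists and 4 and 1 among the members, and ATG9A had a log2 fold change of -0.68 (adjusted p = 8.98e-10). The numbers mark no shared batch in the labels, and the deviations of same-numbered libraries correlated at 0.044 over all genes and at 0.15 over those with a mean log2 CPM above 3. With 2 pairs, these values do not show that the numbers pair the libraries, and the block was not adopted. With 8 counts for BCL2A1 in control cells and under 100 per library for BBC3, depth limits the precision of both.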
